A study of Mus musculus with 16 samples.

Results

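The genes described here are 6 that make, interconvert, use or carry ketone bodies: Acat1, Bdh1, Bdh2, Oxct1, Slc16a1 and Slc16a7. They were chosen by symbol, with earlier results of these data known, and all 6 were found among the 30463 genes of the expression table. Liver RNA of C57BL/6N mice with a wild type genotype was sequenced at 14 weeks of age. Animals were assigned at 2 weeks of age to an injection of vehicle or of diethylnitrosamine (DEN), a liver carcinogen, and at 6 weeks of age either to control diet throughout or to a diet given as 60% high fat. The 16 samples form 4 groups of 4: control diet with vehicle, control diet with DEN, high fat diet with vehicle and high fat diet with DEN. All groups share strain, genotype and age; the labels used here give no sex for the animals.

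Ketone bodies are made in the mitochondria of hepatocytes from acetyl-CoA, most of it from fatty acid oxidation, and are exported to tissues that burn them when glucose is scarce. A thiolase joins acetyl-CoA units to acetoacetyl-CoA, further mitochondrial enzymes release acetoacetate, and a dehydrogenase reduces acetoacetate to beta-hydroxybutyrate. Both acids cross membranes through proton-linked monocarboxylate transporters. The liver is known as a producer and not a consumer, because hepatocytes hold little of the transferase that reactivates acetoacetate.

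The values come from a single comparison that the authors made and deposited. For each gene it gives a mean normalized count over libraries, a log2 fold change and the standard error (SE) of that value, a p-value and, where the mean count was high enough, a p-value adjusted over all such genes. Its header does not name the sides compared, so a gene is described here as higher on the positive or on the negative side, and neither side can be assigned to a diet or to DEN. The 16 columns of values per library carry codes that match no sample label. They were not used, and no value per sample, spread within a group or depth per library is given. All 6 members were among the 16288 genes with an adjusted p. Of these genes 1070, or 6.57%, were called at an adjusted p below 0.05, with 3.67% of all tested genes called positive and 2.9% called negative. At an unadjusted p below 0.05 the share was 19%, and 3 of the 6 members were below it. By sign, 8019 of the 16288 tested genes were positive and 8269 negative.

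Acat1 and Bdh1, which act at the opening and closing steps of ketone body synthesis, were higher on the positive side. Acat1 was 1.33-fold and Bdh1 1.67-fold higher there in the authors' deposited table. The other 4 members, among them both transporters and the enzyme of ketone use, did not pass the test. In all, 2 of 6 members were called positive and 0 negative, 5 were positive in sign and 1 negative. The members had a median log2 fold change of 0.23, beside -0.0044 for all tested genes, in the authors' deposited table. No test over the members was made.

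**Figure D1:**
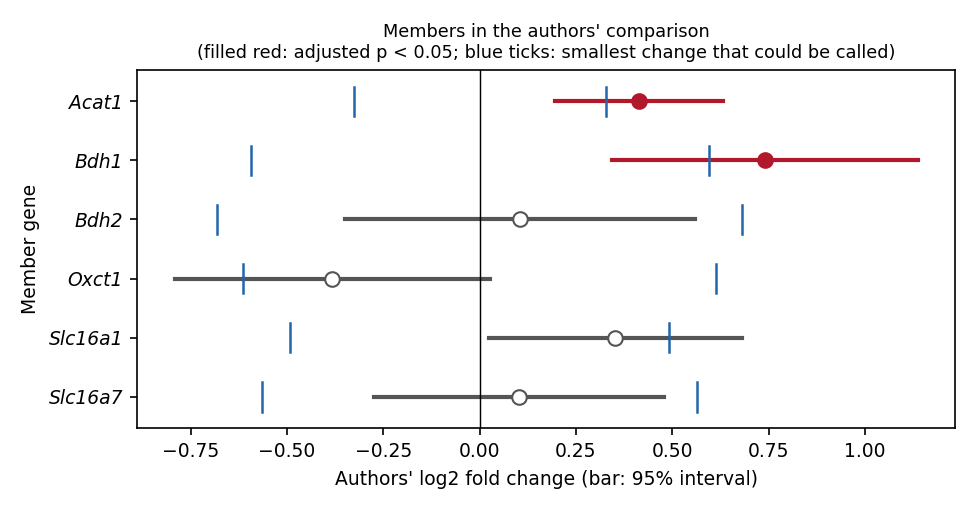
Authors' log2 fold change (horizontal axis) of each member gene (vertical axis), with bars for the 95% normal interval from the authors' SE. Filled red points are called at an adjusted p below 0.05, and blue ticks mark the smallest change that could be called at that gene's SE. Only Acat1 and Bdh1 lie outside their ticks.

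Acat1 (ENSMUSG00000032047) encodes the mitochondrial acetoacetyl-CoA thiolase. The enzyme works in both directions, so it serves the opening step of ketone synthesis, the last step of ketone use and the breakdown of isoleucine. The gene lies on the minus strand of chromosome 9 from 53580522 to 53610382 in GRCm38, and its longest coding transcript in GENCODE M21 has 12 exons and 3405 bases. Its mean normalized count was 7798 in the authors' deposited table, above 98.2% of tested genes. The log2 fold change was 0.41 ± 0.11 (SE), with a 95% interval from 0.20 to 0.63 and an adjusted p of 0.00711, in the authors' deposited table. This was the most precisely measured of the 6 genes: the SE lay below the median of 0.15 of the 500 tested genes nearest in mean count. By the size of the statistic it ranked 445 among 16288 genes. Of tested genes, 19.7% had an absolute log2 fold change at least as wide.

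Bdh1 (ENSMUSG00000046598) encodes the mitochondrial beta-hydroxybutyrate dehydrogenase, which sets the exchange between acetoacetate and beta-hydroxybutyrate. It lies on the plus strand of chromosome 16 from 31422280 to 31458901 in GRCm38, with 7 exons and 3122 bases in its longest coding transcript. Its mean normalized count was 3060 in the authors' deposited table, above 95.3% of tested genes. It stood just behind Acat1 by the size of the statistic, at rank 473, and 7.23% of tested genes had an absolute log2 fold change at least as wide. The log2 fold change of 0.74 ± 0.20 (SE) was the widest of the 6 members, with a 95% interval from 0.34 to 1.14, or 1.27-fold to 2.20-fold, and an adjusted p of 0.00863, in the authors' deposited table. The SE of 0.20 exceeded that of 88.2% of the 500 genes nearest in mean count, whose median SE was 0.12. The estimate for Bdh1 was thus wider than that for Acat1 and less precise, and the intervals of the 2 genes overlap from 0.34 to 0.63. Whether the 2 changes differ was not tested, because the covariance of the estimates is not known. Gm15743, annotated as antisense within Bdh1, had a mean normalized count of 5.50 in the authors' deposited table, far below that of Bdh1, and was not called (adjusted p = 0.782).

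Bdh2 (ENSMUSG00000028167) shares the name but not the compartment: its product is a cytosolic short-chain dehydrogenase, also described as an enzyme of siderophore synthesis. It lies on the plus strand of chromosome 3 from 135281221 to 135304426 in GRCm38. Its mean normalized count was 104.8, the lowest of the members, in the authors' deposited table. The log2 fold change was 0.11 ± 0.23 (SE; 95% interval -0.35 to 0.56, adjusted p = 0.865) in the authors' deposited table. A change of the size estimated for Bdh1 lies outside this interval, while a change of the size of Acat1 lies within it. The interval of Bdh1, from 0.34 to 1.14, overlaps that of Bdh2, and whether the 2 changes differ was not tested. At this SE only a change of at least 1.60-fold could have been called. That is the widest such limit among the members, and the SE exceeded that of 78.2% of the 500 genes nearest in mean count. Bdh2 is thus the member whose change is least well bounded.

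Oxct1 (ENSMUSG00000022186) encodes succinyl-CoA:3-ketoacid CoA transferase, the enzyme that commits acetoacetate to oxidation in tissues that burn ketone bodies. It lies on the plus strand of chromosome 15 from 4026383 to 4155344 in GRCm38, with 17 exons and 3527 bases in its longest coding transcript. It was the only member negative in sign, at -0.38 ± 0.21 (SE, log2, 95% interval -0.79 to 0.026, adjusted p = 0.306) in the authors' deposited table, and it was not called. Its mean normalized count was 113.8 in the authors' deposited table, so the transferase transcript was measurable in whole liver but stood in the lower part of the tested genes, above 44.5% of them. The interval reaches a 1.73-fold lower level on the positive side and barely includes no change, and a change of at least 1.53-fold in either direction was needed for a call. BC037032, annotated on the opposite strand across the start of Oxct1, had a mean normalized count of 1.12 in the authors' deposited table. The libraries came from a stranded kit, per the labels, but the strand setting of the counting is not given, so how many reads of this overlap were left out or assigned to either gene is not known. In bulk tissue, fewer cells of a type and less RNA per cell cannot be told apart. Marker lists differed in sign beside Oxct1, and 9 of 10 hepatocyte markers were negative. All 7 Kupffer cell markers were negative, from -0.76 to -0.43 (log2), and all 8 sinusoidal endothelial markers were negative, from -0.80 to -0.10, in the authors' deposited table. In the authors' deposited table a single marker was called in each list, Timd4 at -0.76 ± 0.26 (SE; adjusted p = 0.0494) and Bmp2 at -0.72 ± 0.23 (SE; adjusted p = 0.0279). The list of T and NK cells had 7 markers, of which 6 were negative and 0 were called. Neutrophil markers were negative in 5 of 6 and stellate cell markers in 5 of 7, with 0 called in either list. Cholangiocyte markers went the other way, with 5 of 6 tested positive in sign, a median log2 fold change of 0.33 in the authors' deposited table and 0 called. The part of these cells in the value of Oxct1 was not tested. The skeletal muscle markers Ckm, Acta1, Myl1 and Tnnt3, from a tissue rich in the transferase, had mean normalized counts of 0.11 to 0.43 in the authors' deposited table.

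The transporters were measured at similar mean counts, and neither passed the test. Slc16a1 (ENSMUSG00000032902) encodes MCT1, which carries lactate, pyruvate and ketone bodies and is the most widely expressed carrier of its family. It lies on the plus strand of chromosome 3 from 104638668 to 104658462 in GRCm38. Its log2 fold change was 0.35 ± 0.17 (SE), with an unadjusted p of 0.0355 and an adjusted p of 0.219, in the authors' deposited table. The 95% interval, from 0.024 to 0.68, excluded 0 before adjustment for the number of genes. The estimate was close in size to that of Acat1, but at its SE a change of at least 1.41-fold was needed for a call, against 1.25-fold for Acat1. The SE of Slc16a1 was wider than that of 80.2% of the 500 genes nearest in mean count.

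Slc16a7 (ENSMUSG00000020102) encodes MCT2, a carrier of the same acids with higher affinity. It lies on the minus strand of chromosome 10 from 125219270 to 125389465 in GRCm38, and its longest coding transcript, of 10981 bases, is the longest among the members. The log2 fold change was 0.10 ± 0.19 (SE; 95% interval -0.27 to 0.48, adjusted p = 0.841) in the authors' deposited table. The SE of 0.19 exceeded that of 89.6% of the 500 genes nearest in mean count, and a change of at least 1.48-fold was needed for a call. The estimate rose to 0.23 once a trend of the authors' statistic on GC content, exonic length and mean count was removed, and it was still not called (adjusted p = 0.583). Slc16a7 has the lowest GC content of the members, at 37.7%, and Bdh1 the highest, at 52.1%, in the longest transcript. The interval of Slc16a7 overlaps that of Slc16a1, and a difference between the carriers was not tested. The 2 sense-intronic annotations inside Slc16a1 on its strand, Gm43581 and Gm43585, had mean normalized counts of 2.94 and 1.31 in the authors' deposited table, beside 1481 for Slc16a1. The annotations that overlap Slc16a7 on the opposite strand, Gm45604 and Gm47862, had 0.11 and 0.63 there.

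**Figure D2:**
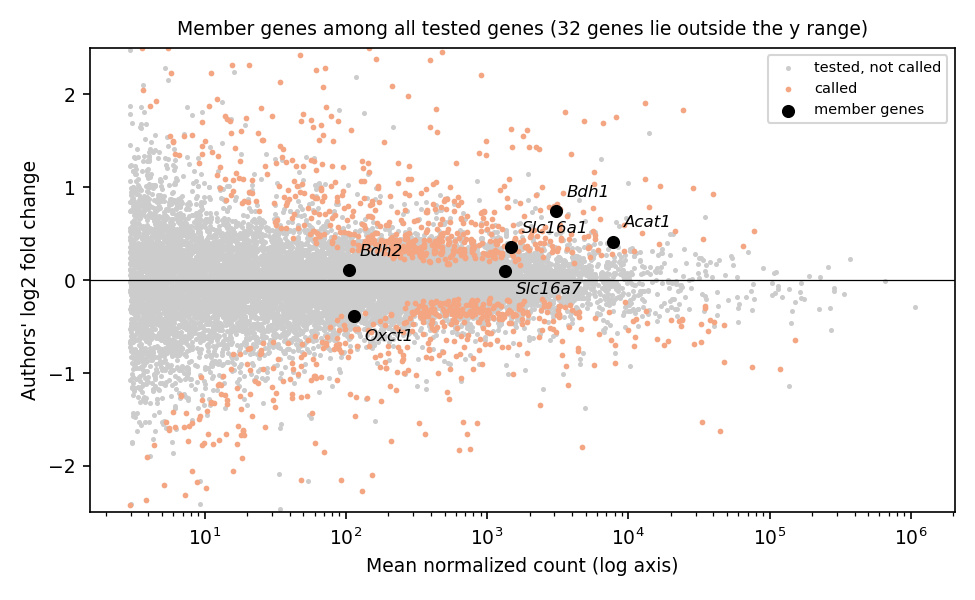
Authors' log2 fold change (vertical axis) against the mean normalized count (horizontal log axis) for all tested genes in grey, called genes in orange and the 6 members in black. Acat1 and Bdh1 stand at the upper right, while Bdh2 and Oxct1 have mean counts near 100 where the grey cloud is wider; 32 tested genes lie beyond the vertical range of ±2.5.

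Levels can be set side by side only per length. On the scale of mean normalized counts per kb of the longest coding transcript, Acat1 was at 2290, Bdh1 at 980.0, Slc16a1 at 334.6, Slc16a7 at 122.5, Bdh2 at 89.5 and Oxct1 at 32.3, computed from the authors' deposited table. The thiolase transcript thus stood 71.0-fold above that of the transferase, and Bdh1 11.0-fold above Bdh2. Per kb of all annotated exons, these ratios were 67.5-fold and 31.9-fold, so the ratio of Bdh1 to Bdh2 depends strongly on the length used. Slc16a1 was 2.73-fold above Slc16a7 per kb, although their mean counts of 1481 and 1345 in the authors' deposited table are close, because the transcript of Slc16a7 is longer. The order of the 4 highest was the same per kb of all annotated exons. Bdh2 and Oxct1 changed places on that scale, with Bdh2 at 24.7 and Oxct1 at 30.8, since Bdh2 has a long non-coding annotation that is counted there. These levels average all libraries, so their spread over samples is not known, and neighbours in the order cannot be tested. Which transcript the liver uses was not measured, so the places of Bdh2 and Oxct1 rest on the annotation.

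**Figure D3:**
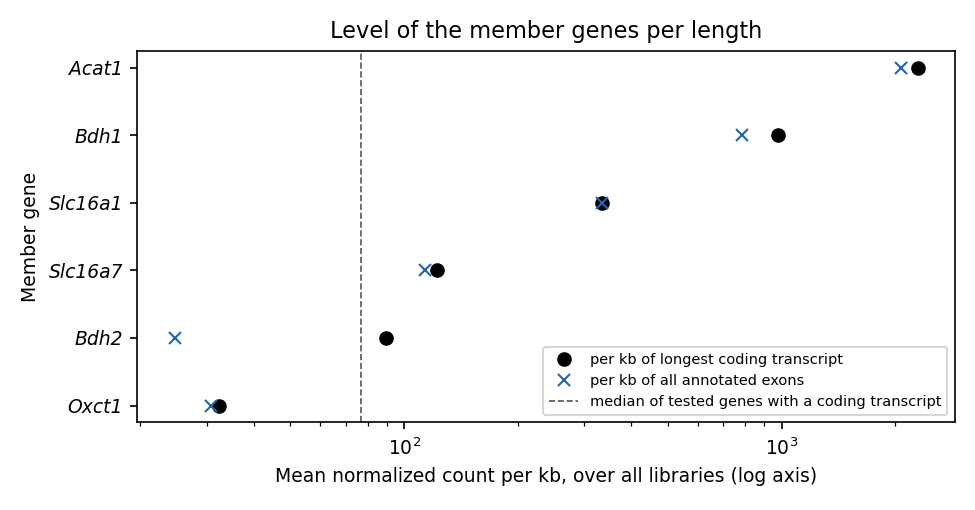
Mean normalized count per kb (horizontal log axis) of each member (vertical axis), by the longest coding transcript (black points) and by all annotated exons (blue crosses); the dashed line is the median of tested genes with a coding transcript. Acat1, Bdh1 and Slc16a1 stand highest on both scales, and Bdh2 moves most between them.

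Promoter windows are shown for Bdh1, the called member with an entry, and for Slc16a1, a member of similar direction that was not called, to set a window with a CG count near the median of all windows beside a CG-rich one. Of the 6 members, 4 had an entry in the RefSeq table of GRCm38.p6: Bdh1 with 2 start sites, and Bdh2, Oxct1 and Slc16a1 with 1 each. Acat1 and Slc16a7 are named only. Each window holds the 250 bases before the start, 5′ to 3′ on the gene's strand, which is the plus strand for both, and capitals mark CG dinucleotides. The window of Bdh1 is that of its upstream start, chr16:31422047-31422296, and that of Slc16a1 is chr3:104638414-104638663.
Bdh1: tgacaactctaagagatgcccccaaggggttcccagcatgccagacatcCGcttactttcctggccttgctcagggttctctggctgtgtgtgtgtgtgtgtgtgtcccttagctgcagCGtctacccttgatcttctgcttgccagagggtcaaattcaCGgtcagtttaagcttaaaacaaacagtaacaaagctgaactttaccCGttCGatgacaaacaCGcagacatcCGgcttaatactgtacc
Slc16a1: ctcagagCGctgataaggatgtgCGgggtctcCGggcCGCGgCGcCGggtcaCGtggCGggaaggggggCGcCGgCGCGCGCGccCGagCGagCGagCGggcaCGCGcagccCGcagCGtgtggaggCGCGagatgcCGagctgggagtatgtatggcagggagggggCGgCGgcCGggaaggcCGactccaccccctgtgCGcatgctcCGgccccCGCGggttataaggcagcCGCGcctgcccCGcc
The Bdh1 window holds 7 CG dinucleotides and the Slc16a1 window 37. Of 32851 windows of this length, 46.3% hold at least 7 and 2.20% at least 37. The other windows were like that of Bdh1, with 9 at its downstream start, 5 for Bdh2 and 6 for Oxct1, beside a median of 6.

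A search on both strands for AGGTCA, the half-site bound by PPAR and related receptors, found none in the 5 windows, and 14.0% of all windows hold it. The direct repeat of this half-site with a 1-base gap (DR1), which contains it, was also in none, and 0.0335% of all windows hold it. The Slc16a1 window holds GGGCGG, the GC box, from base -85 to -80 before the start, a motif in 32.7% of all windows. The Bdh2 window holds CCAAT in reverse from -141 to -137, a motif in 33.9% of all windows. TATAAA, in 12.4% of windows, and TGACGTCA, the cAMP response element, in 1.55%, were not found. These are matches of letters in a short window, and binding was not measured.

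Genes around the members were described by lists, which give context and support no call on the members. Of the listed genes outside the members, 20 were called in all, while 6.57% of all tested genes were called. The number of genes is given with each list, and no test over a list was made. The lists were chosen with earlier results of these data known. The enzymes that bring fatty acids to acetyl-CoA, the substrate of ketone synthesis, were mostly positive in sign: 14 of 16, with 4 called positive and 0 negative. Their median log2 fold change was 0.25 in the authors' deposited table. Of all tested genes, 8019 of 16288 were positive in sign and 3.67% were called positive. The called genes act in the beta-oxidation of medium and short chains and of unsaturated acids. Eci1, an enoyl-CoA isomerase, was at 0.76 ± 0.16 (SE; adjusted p = 0.000117), the largest of them, in the authors' deposited table. Hadh, the short-chain hydroxyacyl-CoA dehydrogenase, was at 0.52 ± 0.12, the short-chain acyl-CoA dehydrogenase gene Acads at 0.43 ± 0.10 and the hydratase gene Echs1 at 0.30 ± 0.10 (SE, log2) in the authors' deposited table. Of these 4 calls, 1 was kept with a t distribution of 12 degrees of freedom, that of Eci1. With the statistic divided by its median absolute deviation, 0 were kept. The value of Acads was close to that of Acat1, while Cpt1a, the entry gate of fatty acids into mitochondria, was negative in sign at -0.34 ± 0.13 (SE; adjusted p = 0.0834) and not called in the authors' deposited table; Cpt1a is named after its value was seen.

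Of 3 cytosolic genes that share acetoacetyl-CoA with ketone metabolism, 1 was called. Aacs, whose cytosolic synthetase turns acetoacetate back to acetoacetyl-CoA for lipid synthesis, was 2.82-fold higher on the positive side at 1.50 ± 0.31 (SE, log2, adjusted p = 0.000179) in the authors' deposited table. Its estimate was wider than that of any member. It is an enzyme of ketone use outside the mitochondrion, whereas the mitochondrial enzyme of use, Oxct1, was negative in sign. The Oxct1 paralogs Oxct2a and Oxct2b, known from testis, had mean normalized counts of 0.18 and 0.40 and no adjusted p in the authors' deposited table.

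Among 12 tested relatives and partners of the transporters, 2 were called positive and 1 negative, with a median log2 fold change of 0.051 in the authors' deposited table. Slc16a13 was at 1.65 ± 0.23 (SE, log2, adjusted p = 5.8e-10), or 3.14-fold, with a mean normalized count of only 59.0 in the authors' deposited table. Slc16a11 was at 0.81 ± 0.21 (SE, log2, adjusted p = 0.00569) and Slc16a5 at -0.80 ± 0.26 (SE, log2, adjusted p = 0.0407) in the authors' deposited table. Bsg, the basigin partner that brings MCT1 to the membrane, was at 0.35 ± 0.20 (SE, log2, adjusted p = 0.340) in the authors' deposited table, a value like that of Slc16a1 and likewise not called; it was chosen after its value was seen. Of 7 lactate and pyruvate enzymes and carriers, whose substrates the same transporters move, only Ldhb was called, at -0.66 ± 0.20 (SE, log2, adjusted p = 0.0221) in the authors' deposited table.

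**Figure D4:**
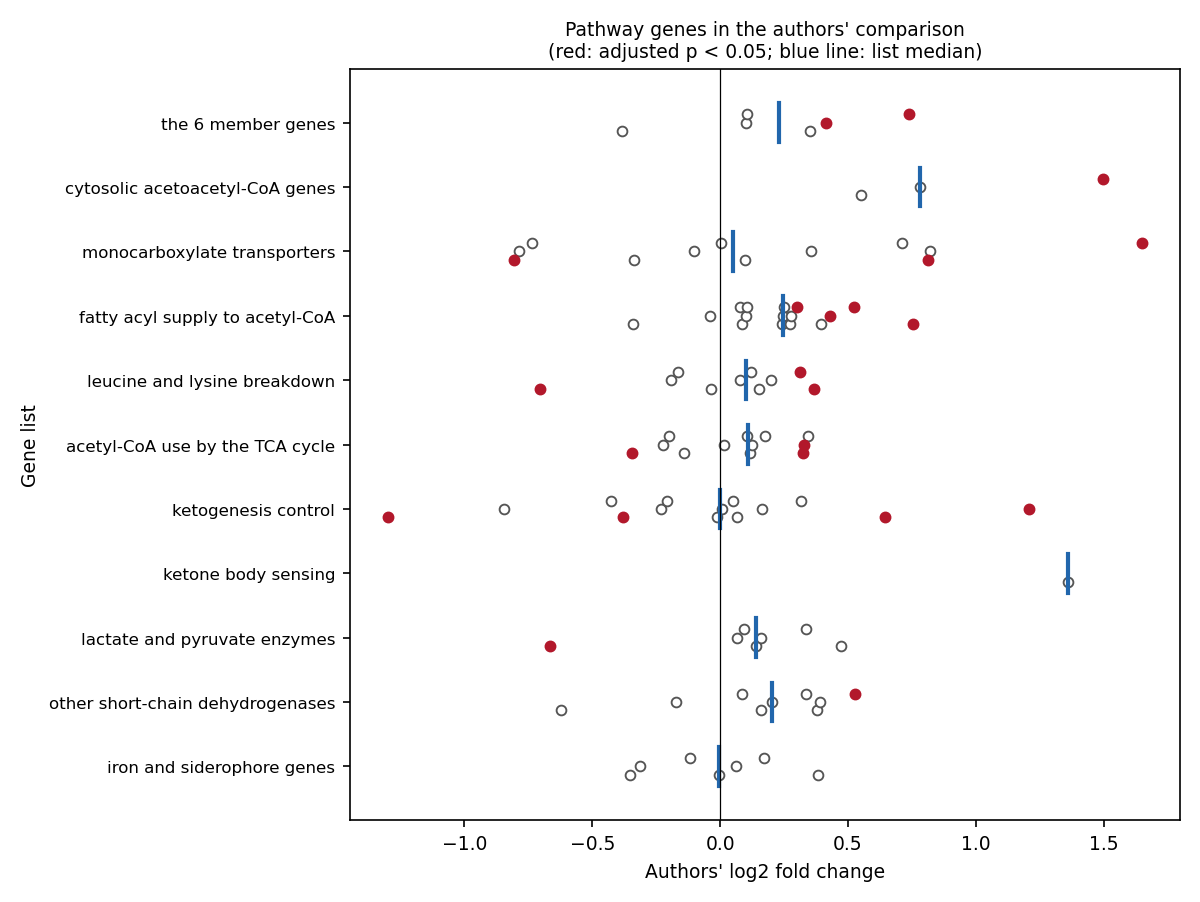
Authors' log2 fold change (horizontal axis) of each tested gene in the lists around ketone metabolism (vertical axis), with called genes in red, other genes open and list medians as blue lines. The fatty acyl supply genes sit mostly right of 0 with a median of 0.25, and the control genes spread to both sides.

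The fates that compete for the same acetyl-CoA, or supply it from amino acids, held calls in both directions. Of 12 genes of the TCA cycle, which burns acetyl-CoA and holds the succinyl-CoA that the transferase needs, 2 were called positive and 1 negative. Suclg2, a subunit of succinyl-CoA ligase, was at 0.32 ± 0.052 (SE, log2, adjusted p = 2.1e-07), citrate synthase, Cs, at 0.33 ± 0.11, and Ogdh, which makes succinyl-CoA, at -0.34 ± 0.072 (SE, log2) in the authors' deposited table. Of 10 genes of leucine and lysine breakdown, 2 were called positive, Gcdh at 0.31 ± 0.090 and Mccc2 at 0.37 ± 0.11, and 1 negative, the lysine-degrading Aass at -0.71 ± 0.17 (SE, log2) in the authors' deposited table.

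Of 14 genes that control ketone synthesis, 2 were called positive and 2 negative, and the median log2 fold change was -0.0011 in the authors' deposited table. Sirt5, a mitochondrial deacylase, was at 0.64 ± 0.10 (SE, log2, adjusted p = 1.6e-07) and the hormone gene Fgf21 at 1.21 ± 0.39 (SE, log2, adjusted p = 0.0332) in the authors' deposited table. The coactivator gene Ppargc1a was at -1.30 ± 0.22 and the insulin receptor gene Insr at -0.38 ± 0.12 (SE, log2) in the authors' deposited table. After removal of a spline trend of the authors' statistic on GC content, exonic length and mean count, Fgf21 and Insr were no longer called (adjusted p = 0.135 and 0.253). Ppara, the receptor that drives ketogenic genes in fasting, was at 0.0089 ± 0.17 (SE, log2, 95% interval -0.32 to 0.34) in the authors' deposited table; it too was chosen after its value was seen.

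The remaining lists held few calls. Of 9 other short-chain dehydrogenases, the family of both Bdh genes, Dhrs4 was called positive at 0.53 ± 0.12 (SE, log2, adjusted p = 0.000875) in the authors' deposited table. Of 7 iron and siderophore genes, set beside Bdh2, 0 were called in the authors' test, and the smallest p was that of Slc40a1 at -0.35 ± 0.23 (SE, log2, adjusted p = 0.424) in the authors' deposited table. Of the receptors that sense ketone bodies and short acids only Hcar2, the beta-hydroxybutyrate receptor, had an adjusted p, and it was at 1.36 ± 0.49 (SE, log2, adjusted p = 0.0726), not called, in the authors' deposited table.

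The tissue label was checked on markers. All 10 hepatocyte markers were abundant, with mean normalized counts from 12998 to 1079860 in the authors' deposited table, and 9 were negative in sign with 2 called, Tat and Ahsg. The median log2 fold change of the hepatocyte markers was -0.26, opposite in sign to Acat1 and Bdh1, in the authors' deposited table. In the adipocyte list, Adipoq, Plin1 and Retn had mean normalized counts of 0.39, 0.44 and 0.56 in the authors' deposited table, near 0. Cfd and Cidec, the 2 tested genes of that list, had mean normalized counts of 395.2 and 734.4 there and were called positive. Cfd was at 7.93 ± 0.69 (SE, log2, adjusted p = 2.6e-26) and Cidec at 2.88 ± 0.54 (SE, log2, adjusted p = 1.4e-05) in the authors' deposited table.

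The calls of Acat1 and Bdh1 changed with the reference taken for the statistic of the authors' deposited table. Read against a t distribution with 12 degrees of freedom, the authors' statistics gave adjusted p of 0.106 for Acat1 and 0.112 for Bdh1. The 12 degrees of freedom are a setting assumed here, as the authors' model is not stated. Divided by their median absolute deviation of 1.44 (scaled to a normal SD), the authors' statistics gave 0.351 and 0.376. Of the 20 called genes of the surrounding lists, 7 kept their call under the former, and 4 under the latter: Slc16a13, Suclg2, Sirt5 and Ppargc1a. Adjusted over every gene with a p-value, with no minimum on the mean count, the authors' p-values gave 0.0753 for Slc16a5, 0.0684 for Echs1, 0.0714 for Cs, 0.0615 for Fgf21, 0.0699 for Insr, 0.0912 for Timd4 and 0.0516 for Bmp2, none of which was then called.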

How the data were processed

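RNA was sequenced from 16 liver samples, in 4 groups of 4. FastQC, Trimmomatic, HISAT2, HTSeq 0.11.1 and the build GRCm38 stand in the submitters' processing notes, without role or order, and whether the counting used strand is not given in these notes. The deposited table holds the authors' mean normalized count, a signal averaged over libraries, their log2 fold change and SE, their test statistic (a score), and their p-value and adjusted p-value, per the file headers. How counts were normalized, the model and the sides compared are likewise not stated. On the values, the statistic is the fold change over its SE, the p-value is 2-sided normal, and the adjusted p is Benjamini-Hochberg over 16288 genes with a mean of at least 2.949. The 16 columns per library match no label and were not used, so the precision rests on the authors' SE. Which samples entered that SE, and so what spread the p-values measure, is not known.

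Own steps used Python 3.11.15 with scipy 1.17.1: 95% normal intervals, counts of calls, levels per kb, motif searches and alternatives (other adjustments, count minimums of 10 and 100, thresholds of 0.01 and 0.10, a scaled, detrended or centred statistic, and a t reference). Simulated statistics served to check the main calls, the median absolute deviation and the detrending only. In them GC content and length were drawn independently of mean count and SE. The smallest callable change is the smallest called statistic, 2.94, times the SE. GENCODE M21 matched 99.8% of genes. All members were named, with the called genes of each list or, where none passed, the gene with the smallest p; other names were chosen after their values were seen. The members and lists were chosen with earlier results of these data known. Some genes of the pathway are not reported here.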

Additional observations from a re-analysis of the deposited data

How the results depend on the processing

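Most of the 10 alternatives run leave the fold change as it is, so a sign could change only in the detrended and centred settings. Every member kept its sign in both, and centring moved the values by only 0.0044. The 4 members that were not called stayed so under all 10 alternatives. Several of these could not have added a call: Bonferroni, the threshold of 0.01, the scaled statistic and the t reference. On the statistics of the authors' deposited table, the 2 called members were lost under Bonferroni adjustment (adjusted p = 1 for Acat1 and Bdh1), with the statistic divided by its median absolute deviation (0.351 for Acat1 and 0.376 for Bdh1), and with the t distribution (0.106 and 0.112), leaving 0 members called under each of these 3. Each of these 3 settings is by construction stricter than the authors' test. In the authors' own test 3 of 6 members had an unadjusted p below 0.05. Over all genes, 1070 calls became 185 with Bonferroni, 491 at an adjusted p below 0.01, 142 with the scaled statistic and 189 with the t distribution. The 20 called pathway genes became 7, 12, 4 and 7. No paired analysis was possible because the columns per library match no sample label, and for the same reason leaving out each replicate was not run. The standard error limits what could be called: among the members, from 1.25-fold for Acat1 to 1.60-fold for Bdh2.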
